A study of Homo sapiens with 3 samples.

Results

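The genes described here are 6 insulin-like growth factor binding proteins (IGFBP2 to IGFBP7) and the receptors IGF1R and IGF2R, 8 of the 19225 genes in the deposited table of 5637 cells. They were listed by name with earlier results of these data known, and each gene is represented by the transcript with the most counts summed over the 3 libraries, so their values are a description of these libraries. 5637 is a cultured line derived from a human bladder carcinoma, labelled wild type in every library. The control library followed transfection of the siRNA labelled siNC, and 2 libraries followed transfection of siRNA against CDCA3 (siCDCA3-1 and siCDCA3-2), a gene whose product acts at entry into mitosis. All were given their siRNA with Lipofectamine 3000. The sources used here give no time after transfection, and do not state whether the siCDCA3 libraries differ in siRNA sequence or are repeated cultures.

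Insulin-like growth factors (IGF1 and IGF2) are secreted peptides that signal through the tyrosine kinase IGF1R and, for IGF2, also through the insulin receptor. The binding proteins hold the peptides outside the cell: they carry them, keep them from the receptor, or release them locally once a protease cuts the binding protein. IGF2R has no kinase; it takes IGF2 to the lysosome for breakdown and also sorts newly made lysosomal enzymes that carry mannose 6-phosphate. Epithelial and stromal cells of many organs secrete mixtures of binding proteins, so which member leads differs between cell types.

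Against the control library, IGFBP3 transcript was 19.9 times lower in siCDCA3-2 and higher in siCDCA3-1. IGFBP4 was lower in both siCDCA3 libraries, and IGFBP7, IGF1R and IGF2R were higher in both, by sizes that differed between the libraries. IGFBP6 was higher in siCDCA3-1 and lower in siCDCA3-2. IGFBP2 and IGFBP5 were near the limit of counting in every library. A test across all genes set both siCDCA3 libraries together against siNC, and no tested member passed it, as set out below. Differences of a single library were not tested, and neither were IGFBP2 and IGFBP5.

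Sequence just before the transcription start is shown for IGFBP3, IGFBP4 and IGFBP6, the tested binding proteins that were at least 2-fold from siNC in a library, and for IGF2R, the receptor that differed most. The windows hold the 250 bases before the RefSeq start on GRCh38.p14, written 5′ to 3′ along the gene. Capitals mark the TATA box letters TATAAA and their variant TATATA, the E-box CACGTG, and the GC box letters GGGCGG, each searched on both strands, so that CCGCCC marks GGGCGG on the other strand.
IGFBP3: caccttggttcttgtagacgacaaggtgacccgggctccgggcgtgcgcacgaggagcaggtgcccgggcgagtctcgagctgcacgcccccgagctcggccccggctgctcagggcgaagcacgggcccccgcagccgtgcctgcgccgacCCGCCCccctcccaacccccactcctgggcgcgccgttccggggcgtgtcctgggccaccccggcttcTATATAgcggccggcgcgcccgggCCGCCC
IGFBP4: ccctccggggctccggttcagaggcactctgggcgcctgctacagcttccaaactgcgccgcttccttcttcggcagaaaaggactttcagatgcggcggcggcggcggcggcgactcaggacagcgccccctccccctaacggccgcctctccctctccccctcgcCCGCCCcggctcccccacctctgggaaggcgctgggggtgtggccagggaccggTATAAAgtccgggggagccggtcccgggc
IGFBP6: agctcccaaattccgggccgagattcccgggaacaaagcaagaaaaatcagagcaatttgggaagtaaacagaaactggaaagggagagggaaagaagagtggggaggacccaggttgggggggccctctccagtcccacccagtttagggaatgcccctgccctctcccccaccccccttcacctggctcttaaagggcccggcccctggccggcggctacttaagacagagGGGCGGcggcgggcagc
IGF2R: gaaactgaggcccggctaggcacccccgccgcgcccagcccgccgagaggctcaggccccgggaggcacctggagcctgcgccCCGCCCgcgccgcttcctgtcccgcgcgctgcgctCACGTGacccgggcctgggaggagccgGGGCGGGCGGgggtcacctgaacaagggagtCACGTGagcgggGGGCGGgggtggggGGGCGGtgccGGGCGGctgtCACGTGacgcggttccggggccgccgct

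The IGFBP3 window (chr7:45921273-45921522, minus strand) has TATATA from 30 to 25 bases before the start, a placing typical of a TATA box. The IGFBP4 window (chr17:40443200-40443449, plus strand) has TATAAA from 29 to 24 bases before the start. The IGFBP6 window (chr12:53097417-53097666, plus strand) holds neither of these motifs and 1 GGGCGG. The IGF2R window (chr6:159968832-159969081, plus strand) holds CACGTG 3 times, at 132 to 127, 74 to 69 and 28 to 23 bases before the start, and GGGCGG 6 times, with 1 overlapping pair. Among 35116 windows of the same length, 10.7% held TATAAA, 3.73% held TATATA, 6.34% held CACGTG and 42.6% held GGGCGG. The GC content was 76% for IGFBP3, 71.6% for IGFBP4, 61.2% for IGFBP6 and 79.2% for IGF2R, against a median of 58% over all windows. These matches describe the letters in the windows, and no binding was measured. Windows were present for 7 of the 8 genes.

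The libraries held between 40420563 and 62389922 gene-level counts. Levels are given as RPKM, reads scaled by transcript length and by a total for the library. Those totals, 130459616 (siNC), 104153360 (siCDCA3-1) and 160640877 (siCDCA3-2), exceed the gene-level counts. Each RPKM is thus lower than gene-level totals would give. CDCA3 itself stood at 5.52 RPKM in siNC against 0.574 (siCDCA3-1) and 1.40 (siCDCA3-2), so the targeted transcript was lower under both labels. A gene was tested where its mean RPKM over the libraries was at least 1, which 10153 genes and 6 of the 8 members met; IGFBP2 and IGFBP5 did not. All 10 urothelial and epithelial markers checked were past that minimum, among them KRT5, KRT19 and CDH1, whereas the endothelial markers PECAM1, VWF, CDH5 and KDR reached no more than 0.041 RPKM in any library. Of 4 leukocyte markers, CD68 passed the minimum, with RPKM of 1.42, 1.94 and 0.993 in siNC, siCDCA3-1 and siCDCA3-2, and PTPRC, CD3E and LYZ reached no more than 0.021.

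IGFBP3, the main carrier of insulin-like growth factors in serum and a binding protein that many epithelial cells secrete, is encoded on GRCh38 chromosome 7 from 45912245 to 45921272 (NM_001013398.1 in the table). Its RPKM was 153 in siNC, 228 in siCDCA3-1 and 7.69 in siCDCA3-2, from 52413, 62544 and 3251 counts. The siCDCA3-2 library is thus the low one, the siNC value lies inside the range of the siCDCA3 libraries, and the groups overlap. In siCDCA3-1 the level was 149% of siNC (exact binomial 95% interval 148% to 151%), and in siCDCA3-2 it was 5.04% of siNC (4.86% to 5.22%). Such intervals cover counting error only, and reads are not independent molecules. Between the siCDCA3 libraries the siCDCA3-2 level was 3.37% of the siCDCA3-1 level (3.25% to 3.49%).

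On the log2(RPKM + 1) scale, where the pseudocount of 1 understates the change of low genes, IGFBP3 differed from siNC by 0.58 in siCDCA3-1 and by -4.14 in siCDCA3-2. Only 2 of the 10153 tested genes (0.0197%), IGFBP3 among them, were lower by that much in siCDCA3-2. The gap of IGFBP3 between the siCDCA3 libraries, -4.72, was the third in size of all tested genes. In siNC IGFBP3 ranked 147 among tested genes by RPKM, in siCDCA3-1 it ranked 106, and in siCDCA3-2 it ranked 4016. Its second transcript in the table, NM_000598.4, had nearly the same counts (52391, 62467 and 3247), since reads were counted for each transcript they overlapped, and is no separate measurement.

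Fibroblasts are a rich source of binding proteins, and their markers were checked beside this result. The summed RPKM of 6 fibroblast markers was 7.23 in siNC, 10.04 in siCDCA3-1 and 2.37 in siCDCA3-2, which follows the order of IGFBP3. COL1A1 made up most of that sum with 6.96, 8.33 and 2.26, and it was the only 1 of the 6 past the minimum. COL1A2 and COL3A1 did not follow that order: they were highest in siCDCA3-2, at 0.022 and 0.016 RPKM from 19 and 14 counts. DCN reached at most 0.067, PDGFRB at most 0.163, and LUM was at 0.123, 1.47 and 0.0029, each highest in siCDCA3-1. None of the 6 was at 0 counts in any library. The leukocyte marker CD68, given above, was also highest in siCDCA3-1 and lowest in siCDCA3-2. PTPRC and CD3E were instead highest in siCDCA3-2, with 10 and 5 counts there, and LYZ had 0, 1 and 1 counts. The part of these markers in the IGFBP3 result was not tested. In bulk RNA, fewer cells of a type and less RNA per cell cannot be told apart.

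IGFBP1 lies 18584 bases from IGFBP3 on chromosome 7 and is mostly a liver product under insulin control. It had 19 counts in siNC, 29 in siCDCA3-1 and 2 in siCDCA3-2, or 0.0883, 0.169 and 0.0075 RPKM. That is 191% of siNC in siCDCA3-1 (104% to 361%) and 8.55% in siCDCA3-2 (0.966% to 35.4%), at levels far under the tested minimum. The order of the libraries was the same as for IGFBP3.

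IGFBP4, a binding protein that restrains IGF signalling until it is cut by the protease PAPPA, is encoded on chromosome 17 from 40443450 to 40457725 (NM_001552.2). Its RPKM was 64.0 in siNC, 33.0 in siCDCA3-1 and 27.3 in siCDCA3-2. Both siCDCA3 libraries lie under siNC and close to each other, so the groups do not overlap. The level was 51.5% of siNC in siCDCA3-1 (50.1% to 52.9%) and 42.6% in siCDCA3-2 (41.6% to 43.7%). IGFBP4 was the only tested member lower in both libraries, a direction that 27.8% of all tested genes shared. Its log2 differences were -0.94 and -1.20, and 86 genes (0.847% of those tested) were lower in both libraries by at least 0.94. No overlapping gene is annotated at the IGFBP4, IGFBP3 or IGFBP6 locus.

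IGFBP6, which prefers IGF2 over IGF1, is encoded on chromosome 12 from 53097667 to 53102340 (NM_002178.2). Its RPKM was 29.7 in siNC, 36.7 in siCDCA3-1 and 11.9 in siCDCA3-2. As with IGFBP3, siCDCA3-1 is the high library and siCDCA3-2 the low one, and siNC falls between them. The siCDCA3-1 level was 124% of siNC (118% to 130%) and the siCDCA3-2 level was 40.1% (37.9% to 42.4%). IGFBP3 and IGFBP6 were the 2 members of the 6 tested that went opposite ways in the siCDCA3 libraries, as 48.5% of all tested genes did. They were also the only 2 at least 2-fold apart between those libraries, against 8.63% of all tested genes.

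IGFBP7, a secreted protein of the family with low affinity for insulin-like growth factors, is encoded on chromosome 4 from 57030773 to 57110385 (NM_001553.2). Its RPKM was 5.48 in siNC, 10.05 in siCDCA3-1 and 7.68 in siCDCA3-2, both siCDCA3 libraries above siNC. As a share of siNC these come to 183% (168% to 201%) and 140% (128% to 153%). The locus overlaps POLR2B and the antisense transcript IGFBP7-AS1, and no source used here says if reads were counted by strand, so reads of overlapping parts cannot be told apart.

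IGFBP2 and IGFBP5 are neighbours on chromosome 2, 7668 bases apart, and both bind the extracellular matrix or cell surface as well as the growth factors. IGFBP2 (chromosome 2, 216632828 to 216664436, NM_000597.2) had 36 counts in siNC, 7 in siCDCA3-1 and 4 in siCDCA3-2, or 0.193, 0.047 and 0.017 RPKM. The siCDCA3 libraries were at 24.4% (9.15% to 55.5%) and 9.02% (2.33% to 25.2%) of siNC, so both were lower beyond counting error. IGFBP5 (chromosome 2, 216672105 to 216695549, NM_000599.3) had 5, 2 and 10 counts. No difference in IGFBP5 from siNC was detectable at this depth, with intervals of 4.77% to 306% in siCDCA3-1 and 50.6% to 606% in siCDCA3-2.

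**Figure D1:**
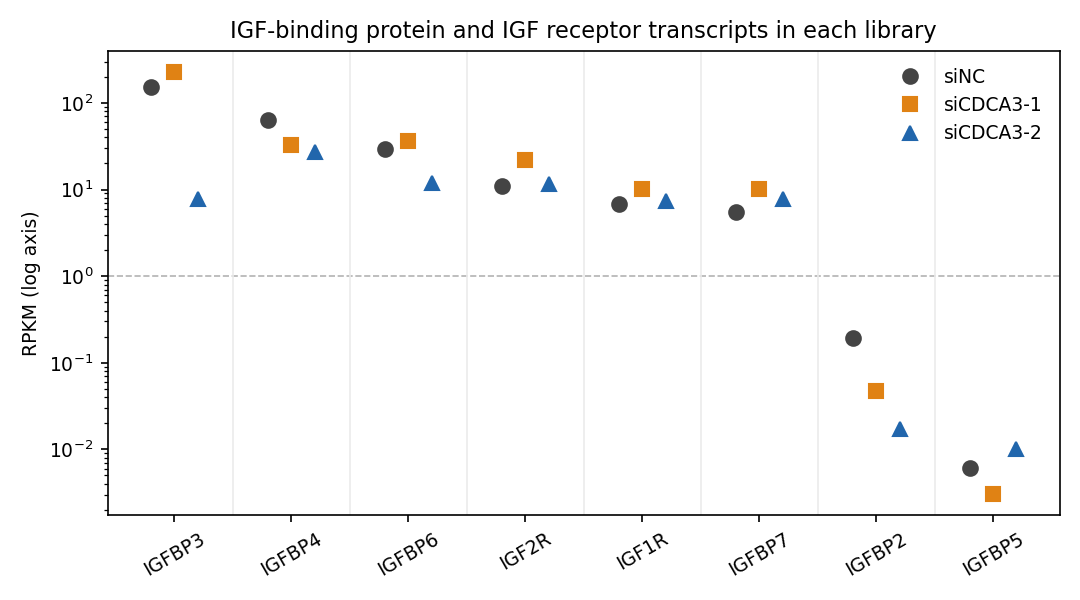
RPKM of each member (x axis, ordered by siNC level) on a log axis, with a circle for siNC, a square for siCDCA3-1 and a triangle for siCDCA3-2; each point is 1 library and the dashed line is an RPKM of 1. The siCDCA3-2 triangle of IGFBP3 stands at 7.69, far under the other libraries at 153 and 228, while both siCDCA3 points of IGFBP4 lie under its siNC point.

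Summed over the 6 genes, binding protein RPKM was 252 in siNC, 308 in siCDCA3-1 and 54.6 in siCDCA3-2. IGFBP3 made up 60.6% of that sum in siNC and 74.1% in siCDCA3-1, and 14.1% in siCDCA3-2. IGFBP4 had 25.4%, 10.7% and 50.01% of the sum, so it was the leading binding protein transcript in siCDCA3-2 alone. IGFBP6 had 11.8%, 11.9% and 21.8%. Without IGFBP3 the sum was 99.4, 79.8 and 46.9 RPKM, still lowest in siCDCA3-2.

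**Figure D2:**
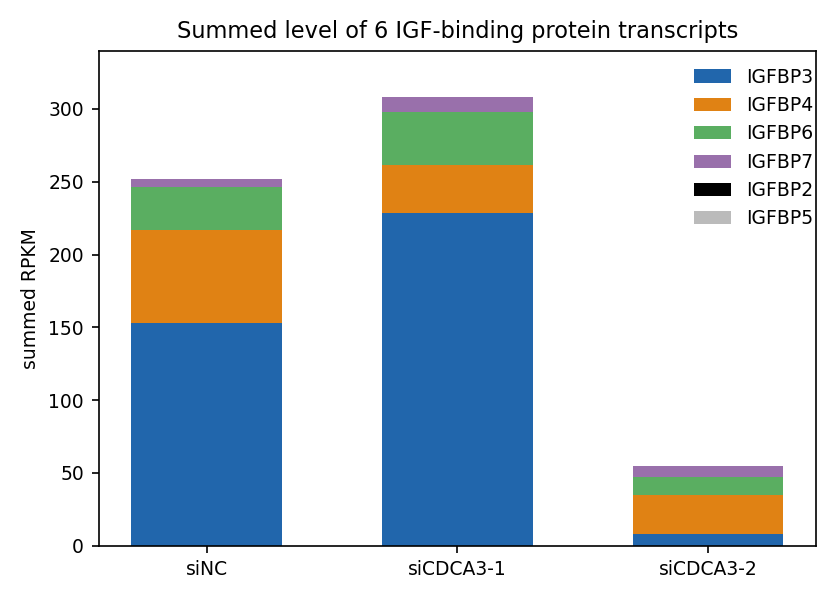
Stacked bars of RPKM summed over the 6 IGF-binding protein genes in each library (y axis from 0, 1 library per bar, no error bars because each bar is a single library). The IGFBP3 block fills most of the siNC and siCDCA3-1 bars and 14.1% of the siCDCA3-2 bar, and IGFBP2 and IGFBP5 are too low to be seen.

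IGF1R, the receptor kinase for both growth factors, is encoded on chromosome 15 from 98648539 to 98964530 (NM_000875.4). Its RPKM was 6.72 in siNC, 10.06 in siCDCA3-1 and 7.35 in siCDCA3-2. The siCDCA3-1 level was 150% of siNC (146% to 154%) and the siCDCA3-2 level was 109% (107% to 112%). Both were above siNC, siCDCA3-1 by the larger amount. The antisense RNA IRAIN overlaps this gene.

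IGF2R is encoded on chromosome 6 from 159969082 to 160111504 (NM_000876.3). Its RPKM was 11.1 in siNC, 21.9 in siCDCA3-1 and 11.7 in siCDCA3-2. The siCDCA3-1 library is the high one at 198% of siNC (195% to 202%), while siCDCA3-2 was at 106% (104% to 108%), near the control. IGF2R is overlapped by the noncoding RNA AIRN. IGF2R stood above IGF1R in every library, and the ratio of their levels was 1.65 (siNC), 2.18 (siCDCA3-1) and 1.59 (siCDCA3-2). IGFBP7, IGF1R and IGF2R were the 3 tested members higher in both siCDCA3 libraries, a direction that 23.6% of all tested genes shared.

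By RPKM in siNC the members ran IGFBP3, IGFBP4, IGFBP6, IGF2R, IGF1R, IGFBP7, IGFBP2 and IGFBP5. In siCDCA3-1 IGFBP6 passed IGFBP4, and in siCDCA3-2 the order began with IGFBP4, IGFBP6 and IGF2R, with IGFBP3 in the fourth place. Over the siCDCA3 libraries the range of IGFBP3 (7.69 to 228 RPKM) spanned those of IGFBP4 (27.3 to 33.0) and IGFBP6 (11.9 to 36.7), so these 3 could not be ordered beyond their spread. The ranges of IGF1R (7.35 to 10.06) and IGFBP7 (7.68 to 10.05) also overlapped. IGFBP2 (0.017 to 0.047) stayed above IGFBP5 (0.0031 to 0.0100) by RPKM. In siCDCA3-2 that order rests on 4 counts of IGFBP2 against 10 of the longer IGFBP5 transcript, and it was not tested.

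In edgeR's quasi-likelihood test of siCDCA3 against siNC, none of the 6 tested members passed an adjusted p (Benjamini-Hochberg over 10153 genes) of 0.05, a threshold that 0.0295% of all tested genes passed. The edgeR log2 fold change was -1.07 for IGFBP4 with a standard error of 0.49, an unadjusted p of 0.04902 and an adjusted p of 0.9997. IGFBP4 was the only member with an unadjusted edgeR p under 0.05, which 1.32% of tested genes had. For IGFBP3 the edgeR log2 fold change over both siCDCA3 libraries was -0.30 with a standard error of 1.13 (adjusted p = 0.9997); leaving out siCDCA3-1 gave -4.37 and leaving out siCDCA3-2 gave 0.66. IGFBP6 had -0.24 with a standard error of 0.62, and -1.38 or 0.39 with either library left out. IGFBP7, IGF1R and IGF2R had 0.72, 0.40 and 0.64 with standard errors of 0.59, 0.53 and 0.58. The adjusted p was 0.9997 for each of these as well. The receptor values came mostly from siCDCA3-1: leaving it out gave 0.07 for IGF1R and 0.02 for IGF2R, and leaving out siCDCA3-2 gave 0.66 and 1.07. IGFBP4 kept its sign, with -1.29 without siCDCA3-1 and -0.88 without siCDCA3-2. The targeted transcript CDCA3 did not pass either, with an edgeR log2 fold change of -2.50, a standard error of 0.67 and an adjusted p of 0.9997. The control has a single library, assumed in this test to vary as the siCDCA3 libraries do, so these p-values cannot be read as an absence of change.

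By size alone, 3 of the 6 tested members (IGFBP3, IGFBP4 and IGFBP6) were at least 2-fold lower than siNC in siCDCA3-2 on the log2(RPKM + 1) scale, as were 3.27% of all tested genes, and 0 were 2-fold higher there (1.42% of tested genes). In siCDCA3-1, 0 of 6 reached that size in either direction, where 1.74% of tested genes were lower and 0.847% higher. IGFBP4 (-0.94) and IGF2R (0.93) came nearest in siCDCA3-1, and once RPKM was rescaled by TMM factors they stood at -0.86 and 1.01. None of the 6 was at least 2-fold from siNC in both libraries in the same direction (0.719% of tested genes were lower and 0.0985% higher). The median difference of the 6 was 0.55 in siCDCA3-1 and -0.56 in siCDCA3-2, beside -0.07 and 0.05 for all tested genes. Both comparisons use the same siNC library.

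**Figure D3:**
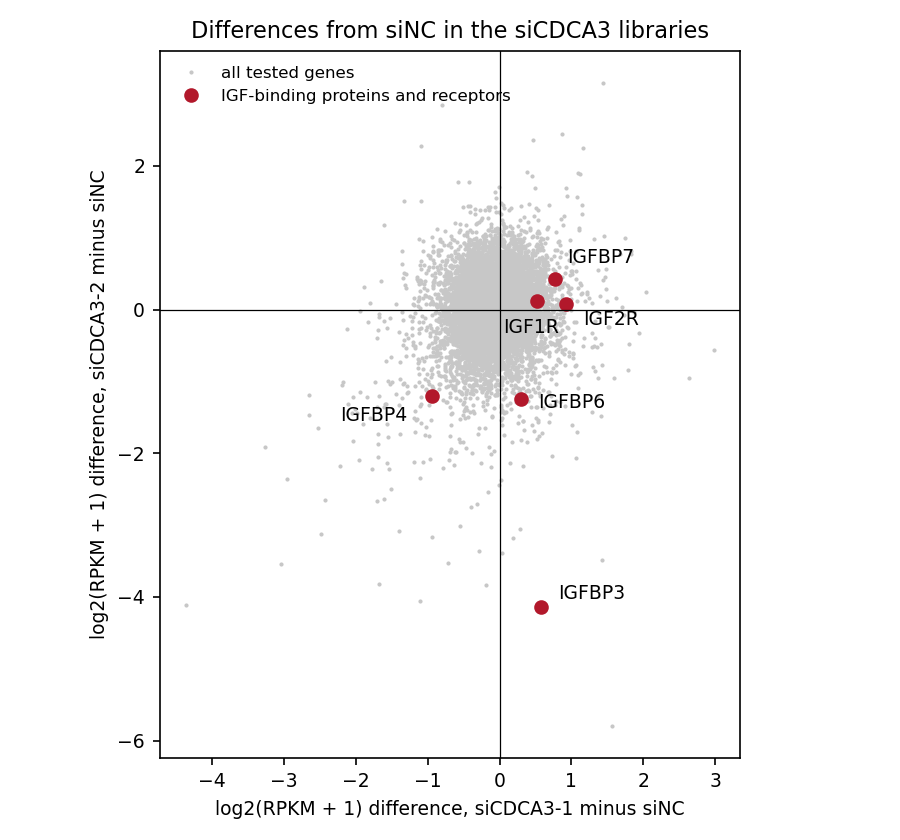
Difference from siNC in log2(RPKM + 1) in siCDCA3-1 (x axis) and siCDCA3-2 (y axis) for the 10153 tested genes (grey) and the 6 tested members (red, named); each axis shares the single siNC library. IGFBP3 lies apart at 0.58 and -4.14, IGFBP4 is the only member low on both axes, and IGFBP7, IGF1R and IGF2R lie right of centre.

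Among 5498 other genes averaging an RPKM of 5 or more, those nearest to the 2 members with the largest mean difference were found by the distance between their pairs of log2 differences, measured over the 2 siCDCA3 libraries against siNC. No gene came within 0.5 of IGFBP3. The nearest were C15orf48 at a distance of 0.83 (RPKM 112, 97.9 and 6.88 in siNC, siCDCA3-1 and siCDCA3-2), HOTS at 0.93 (26.2, 27.0 and 1.60) and S100A9 at 1.04 (2601, 2959 and 286). All 3 had their low value in siCDCA3-2. HOTS is annotated opposite the noncoding RNA H19, and without strand their reads cannot be told apart. Around IGFBP4, by contrast, 71 genes lay within 0.5, the nearest being CALCOCO2 at 0.04 (13.7, 6.49 and 5.47), RBCK1 at 0.11 (13.9, 6.86 and 6.03) and MMP14 at 0.12 (135, 65.8 and 61.7).

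The remaining genes of the pathway were taken from 6 lists grouped by role. Beside the counts by direction below, 27.8% of all tested genes were lower in both siCDCA3 libraries, 23.6% higher in both and 48.5% opposite. In the edgeR test 0 genes of the 6 lists passed the adjusted threshold in either direction, and 3 of the 80 tested (STC1, STC2 and CYR61) had an unadjusted edgeR p under 0.05, beside 1.32% of all tested genes.

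Of the ligands, IGF2 was the only one past the minimum. Its RPKM was 70.5 in siNC, 53.4 in siCDCA3-1 and 9.61 in siCDCA3-2, so siCDCA3-2 was again the low library. These are 75.7% (74.6% to 76.8%) and 13.6% (13.3% to 13.95%) of siNC. The edgeR log2 fold change of IGF2 was -1.10 with a standard error of 0.76 (adjusted p = 0.9997), and it was -2.94 without siCDCA3-1 and -0.32 without siCDCA3-2. IGF1 had 0, 0 and 1 counts, and a count of 0 allows up to 3 counts, or 0.0195 RPKM in siNC and 0.0244 in siCDCA3-1. The summed binding protein RPKM was 3.57 times that of IGF2 in siNC, 5.77 times in siCDCA3-1 and 5.68 times in siCDCA3-2. The insulin receptor INSR had RPKM of 2.37, 1.78 and 1.78, and the ratio of IGF1R to INSR was 2.83, 5.66 and 4.12.

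Stanniocalcins bind and inhibit PAPPA, the protease that cuts IGFBP4. STC2 stood at 18.7 RPKM in siNC against 5.07 (siCDCA3-1) and 6.74 (siCDCA3-2), or 27.1% and 36.0% of siNC (edgeR log2 fold change -1.66, standard error 0.47, adjusted p = 0.9997). STC1 went the other way with 0.625, 2.16 and 1.61. PAPPA was at 0.080, 0.035 and 0.085 RPKM, under the minimum in all libraries. Of the 4 cleavage genes past the minimum, 1 was lower and 3 were higher in both siCDCA3 libraries, with median differences of 0.27 and 0.51.

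Among other genes whose product has an IGFBP-type N-terminal domain, 5 of 12 passed the minimum, of which 2 were higher in both libraries, 1 lower in both and 2 opposite. CYR61, a secreted ligand of integrins, was at 5.72, 13.9 and 15.95 RPKM (edgeR log2 fold change 1.39, standard error 0.51, adjusted p = 0.9997). CRIM1, a transmembrane protein with this domain, had 2.48, 4.49 and 5.92.

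Downstream of the receptor, 30 of 36 genes of PI3K and AKT signalling passed the minimum: 8 were lower in both libraries, 9 higher in both and 13 opposite, with medians of -0.03 and 0.08. PIK3R3, a regulatory subunit of PI3K, was the only one of them at least 0.5 from siNC with 1 sign in both libraries, with RPKM of 2.24, 4.66 and 4.10. For genes that FOXO factors induce when AKT is inactive, 12 of 14 passed the minimum. Of these 0 were lower in both, 4 higher in both and 8 opposite, beside 27.8%, 23.6% and 48.5% of all tested genes. Their medians were 0.37 in siCDCA3-1 and -0.07 in siCDCA3-2. BCL2L11, which encodes the death-promoting protein BIM, had 1.46, 3.10 and 2.64.

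All 27 genes of mannose 6-phosphate sorting, the second task of IGF2R, and of the lysosomal enzymes it carries passed the minimum. Of these 7 were lower in both libraries, 7 higher in both and 13 opposite, with medians of 0.11 and -0.09. The lysosomal protease CTSD, chosen after its values were seen, had RPKM of 239, 380 and 107, high in siCDCA3-1 and low in siCDCA3-2 as IGFBP3 and IGFBP6 were. CTSB, another protease of the lysosome chosen in the same way, had 23.3, 25.3 and 8.66. The order did not hold for CTSL, a related protease with 12.5, 10.01 and 18.2.

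**Figure D4:**
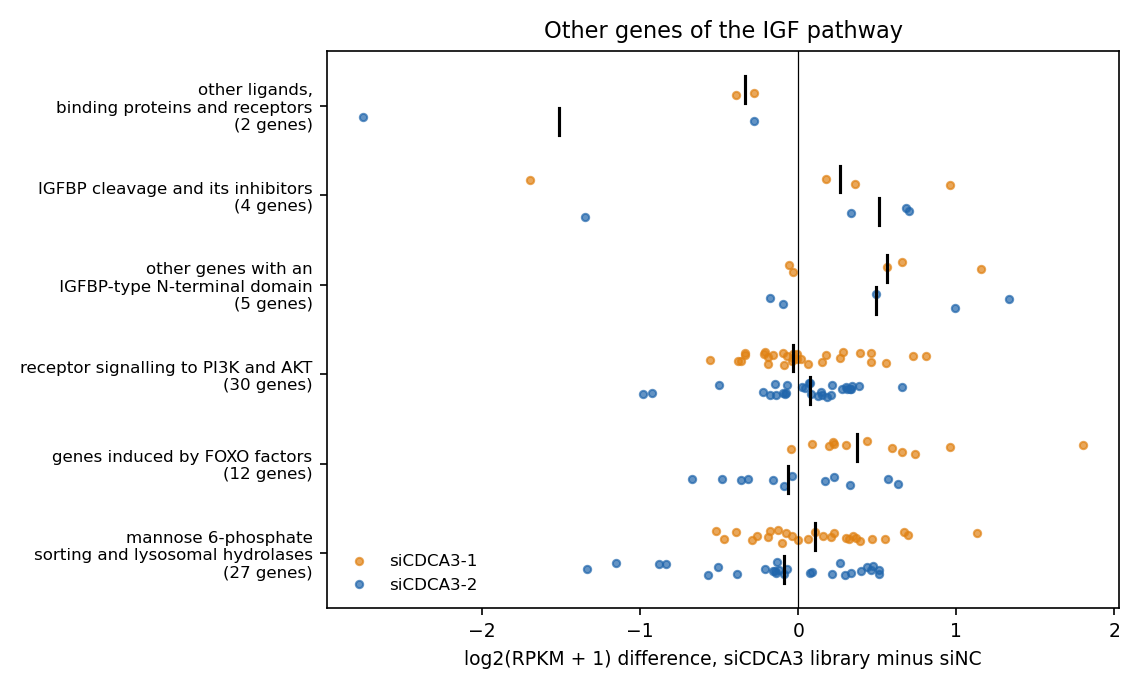
Difference from siNC in log2(RPKM + 1) (x axis) for every tested gene of the 6 pathway lists (rows), with siCDCA3-1 in orange, siCDCA3-2 in blue and a black bar at each median; points are genes and are jittered vertically. The 30 signalling genes centre near 0 in both libraries (medians -0.03 and 0.08), and IGF2 is the leftmost blue point in the top row.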

How the data were processed

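RNA of 3 libraries was depleted of ribosomal RNA and sequenced as pairs. Per the submitters' processing notes, reads were handled with Trimmomatic 0.36, FastQC, HISAT2 and HTSeq; hg38 and mm10 are both listed there with no role, and 98.6% of the table's accessions matched human RefSeq (GRCh38.p14), which supplied coordinates and promoter windows. Per the file headers, the deposited table gives a count and an RPKM per library, and a length. Its rows are RefSeq transcripts, and the counts were taken as raw. Counts, lengths and RPKM of highly counted transcripts gave back 1 total per library. Members, lists and tests were chosen with earlier results of these data known.

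Each gene was represented by the transcript with the most counts. Spreadsheet dates were turned back into symbols for 102 of 103 rows. edgeR 4.0.16 in R 4.3.3 compared siCDCA3 (n = 2) with siNC (n = 1), with TMM scaling and a two-sided quasi-likelihood test. Benjamini-Hochberg adjustment ran over genes averaging an RPKM of 1 or more. The fits were also run on simulated counts with a smaller dispersion than these data, so that run cannot show how the test performs here. The edgeR test leaves 1 residual degree of freedom, and each gene's spread was moderated by that of all genes (prior degrees of freedom 12, common dispersion 0.126). The p-values thus rest mostly on spread between the siCDCA3 libraries pooled over genes, which may be technical. Standard errors were derived from the fold change and the F statistic. Size counts used log2(RPKM + 1). DESeq2 1.42.0, limma 3.58.1, median-of-ratios scaling, other filters and pseudocounts, TMM-rescaled RPKM, the longest transcript and each siCDCA3 library left out were alternatives.

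All 8 members, IGFBP1, INSR, IGF1, IGF2 and CDCA3 are named, with list genes past the edgeR threshold or at least 0.5 from siNC in both siCDCA3 libraries with 1 sign, and the 3 genes nearest to each of 2 members. No columns were left out.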

Additional observations from a re-analysis of the deposited data

How the results depend on the processing

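Over the 7 fits with a test the adjusted p of the tested members was never under 0.9997, so no member was called by edgeR, DESeq2 or limma. Across all genes edgeR called 3 (0 higher and 3 lower, with 134 at an unadjusted p under 0.05). DESeq2 called 10 (2 higher and 8 lower), limma on log2(RPKM + 1) called 0 with 121 at an unadjusted p under 0.05, edgeR without a filter called 22 (4 higher and 18 lower), and edgeR at a mean RPKM of at least 5 called 0 with 74 at an unadjusted p under 0.05. The cause was not tested. The count of genes at least 2-fold from siNC in both siCDCA3 libraries was 83 (10 higher and 73 lower), and 133 (32 higher and 101 lower) with a pseudocount of 0.1, which shrinks low genes less. With 1 siCDCA3 library left out it ranged from 263 to 476, because 1 library then decides. Leaving out a library also reversed the fold change of 2 members: IGFBP3 ranged from -4.37 to 0.66 and IGFBP6 from -1.38 to 0.39. Of 72 recomputed log2 differences of members and IGF2, 0 changed sign under the pseudocounts, TMM rescaling or the longest transcript. However, 18 of them moved past the interval for counting error. Under TMM rescaling the siCDCA3-2 difference of IGF2R went from 0.07 to 0.02 and that of IGF1R from 0.11 to 0.06. With a library left out there is no residual degree of freedom, so no count of calls is given. No paired analysis was possible because siNC has 1 library and its label carries no replicate number. Depth limits IGFBP2, IGFBP5, IGFBP1 and IGF1, each with 36 counts or fewer in every library.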
